A study of Mus musculus with 9 samples.

Results

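The 10 genes described here are Ciita, the coactivator that switches on MHC class II transcription, the classical class II chains H2-Aa, H2-Ab1 and H2-Eb1 with the related chain H2-Eb2, the invariant chain Cd74, the DM chains H2-DMa and H2-DMb2, and the DO chains H2-Oa and H2-Ob. They were chosen by name and role out of the 18194 genes of the array that had a probe set with exactly 1 gene symbol. A gene with several such probe sets is represented by the one that was brightest on average, and the other probe sets were set beside it. Peripheral blood of C57BL/6 mice aged 8 to 9 weeks was measured on 9 arrays, each from another animal, 3 for every group. Ctrl mice received no manipulation and were bled at the start of anesthesia. PT mice (polytrauma) had a traumatic brain injury, a closed femoral fracture with soft tissue damage and a blunt chest trauma on both sides, and were bled 4 h later. PT+HS mice had the same injuries and the same time point, and in addition a hemorrhage to a mean arterial pressure of 30 mmHg, held for 60 min, after which electrolyte solution at 4 times the drawn volume was given over 30 min. The injured mice remained anesthetized, and the study's methods give buprenorphine and catheters for the trauma procedure and norepinephrine where the pressure had to be held. A difference from Ctrl therefore belongs to injury, anesthesia, drugs and time together, which cannot be told apart. The blood went directly into RNA-stabilizing tubes, so that the values cover all blood cells at once.

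MHC class II molecules are pairs of an alpha and a beta chain that carry peptides of ingested proteins to the surface of B cells, dendritic cells and monocytes, where CD4 T cells read them. The invariant chain occupies the groove of a new class II molecule until proteases remove it, DM then exchanges the remaining fragment for other peptides, and DO, found mainly in B cells, holds DM back. Ciita does not bind DNA itself but is recruited by the factors RFX, NF-Y and CREB, which sit together on the X and Y boxes of class II promoters. C57BL/6 mice lack the class II E molecule at the surface because the H2-Ea gene of this strain has lost its promoter, while the E beta chain gene H2-Eb1 is still transcribed. In blood, B cells are the most frequent cells with class II.

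The promoter sequences show what the class II genes have in common apart from their expression. RefSeq windows of mouse build GRCm38.p6, reaching from 250 bases before to 50 bases after a transcript start, were used for 7 of the 10 genes, and windows of Ciita, Cd74 and H2-Ab1 were not used here. All 7 genes lie on chromosome 17, in the stretch that also holds H2-Ab1, whereas Ciita lies on chromosome 16. The stretches below run 5′ to 3′ along the gene and are shown because they hold the core of the Y box, TGATTGG, and in 4 of the 6 genes a second motif, AGCAAC, which is part of the X box. Both motifs are in capitals.
H2-Aa, chr17:34287852-34287918, minus strand: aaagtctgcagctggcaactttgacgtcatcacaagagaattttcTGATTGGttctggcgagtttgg
H2-Eb1, chr17:34305761-34305827, plus strand: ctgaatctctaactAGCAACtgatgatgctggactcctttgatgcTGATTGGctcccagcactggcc
H2-Eb2, chr17:34325528-34325594, plus strand: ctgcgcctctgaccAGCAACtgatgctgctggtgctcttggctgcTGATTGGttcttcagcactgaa
H2-DMb2, chr17:34145112-34145178, plus strand: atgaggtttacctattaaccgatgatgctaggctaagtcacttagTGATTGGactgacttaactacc
H2-Oa, chr17:34092289-34092355, plus strand: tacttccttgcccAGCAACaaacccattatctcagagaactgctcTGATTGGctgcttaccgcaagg
H2-Ob, chr17:34238801-34238867, plus strand: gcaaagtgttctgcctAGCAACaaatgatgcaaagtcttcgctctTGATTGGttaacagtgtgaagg

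TGATTGG, searched on both strands, was found for these 6 genes and not for H2-DMa, and 7.82% of all 32851 windows of the same length held it. The 7 genes had 8 windows, and a gene was counted when any of its windows matched, while the percentages are of windows. AGCAAC was chosen as a motif after the windows had been seen. It stood in the windows of H2-Eb1, H2-Eb2, H2-Oa and H2-Ob, and 14.8% of all windows held it, while 1.37% held both. In H2-Eb1 and H2-Eb2 the first base of AGCAAC lay 31 bases before that of TGATTGG, in H2-Oa 32 bases and in H2-Ob 29 bases. From the start of the transcript, TGATTGG lay at -50 in H2-Aa, -61 in H2-Eb1, -102 in H2-Eb2, -92 in H2-DMb2, -45 in H2-Oa and -59 in H2-Ob. In H2-DMb2 and H2-Eb2 the annotated gene starts before the printed stretch, at 34143229 and 34325503. Their distances therefore refer to a transcript start inside the annotated gene. A match of letters is a description of the sequence only, and a window without a match says nothing on the factor.

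The deposited values are log2 expression values, on which a difference of 1 is a factor of 2. Array medians lay between 3.63 and 3.76, and the values of all probe sets between 1.74 and 14.7. Over all genes PT replicate 2 correlated with the remaining 8 arrays at 0.900 to 0.944, whereas these 8 correlated with each other at no less than 0.958. This array stands apart, and results of PT are also given without it. The median of the mean levels of all genes was 4.29, and the Ctrl mean levels of the 10 genes lay between 5.17 and 11.34. Differences were tested with limma on all 9 arrays. A gene is called past the thresholds where the unadjusted p was under 0.05 and the difference at least 1.5-fold. Adjusted p-values are Benjamini-Hochberg values over all 18194 genes. In either comparison with Ctrl they were between 0.594 and 0.999 for the 10 genes, so that 0 of 10 genes passed after adjustment by limma, and 0 passed after adjustment of the methods' t-test. Without adjustment, limma gave a p under 0.05 for 7 genes in PT and for 5 genes in PT+HS. These are the thresholds of the study, and what follows describes genes past them and not genes called after adjustment.

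In blood of PT mice, 7 of the 10 genes were past the thresholds and all 7 were lower than in Ctrl, where 2.26% of all genes were past the thresholds and lower. These were H2-Aa, H2-Ab1, H2-Eb1, Cd74, H2-DMa, H2-DMb2 and H2-Oa. In PT+HS, 5 of the 10 genes were past the thresholds and lower, namely Cd74, H2-Ab1, H2-DMa, H2-DMb2 and H2-Oa, beside 1.29% of all genes. All 10 differences were below 0 in both comparisons, with a median of -1.19 in PT and -1.05 in PT+HS, while the medians over all genes were -0.00025 and -0.014. Both comparisons use the same Ctrl arrays, so that a low or high Ctrl value of a gene enters both. Between PT+HS and PT, 0 of the 10 genes were past the thresholds in either direction. Of all genes, 72 were past them and lower (0.396%), and 132 were past them and higher. The plot of the levels on each array gives the single values behind these counts.

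**Figure D1:**
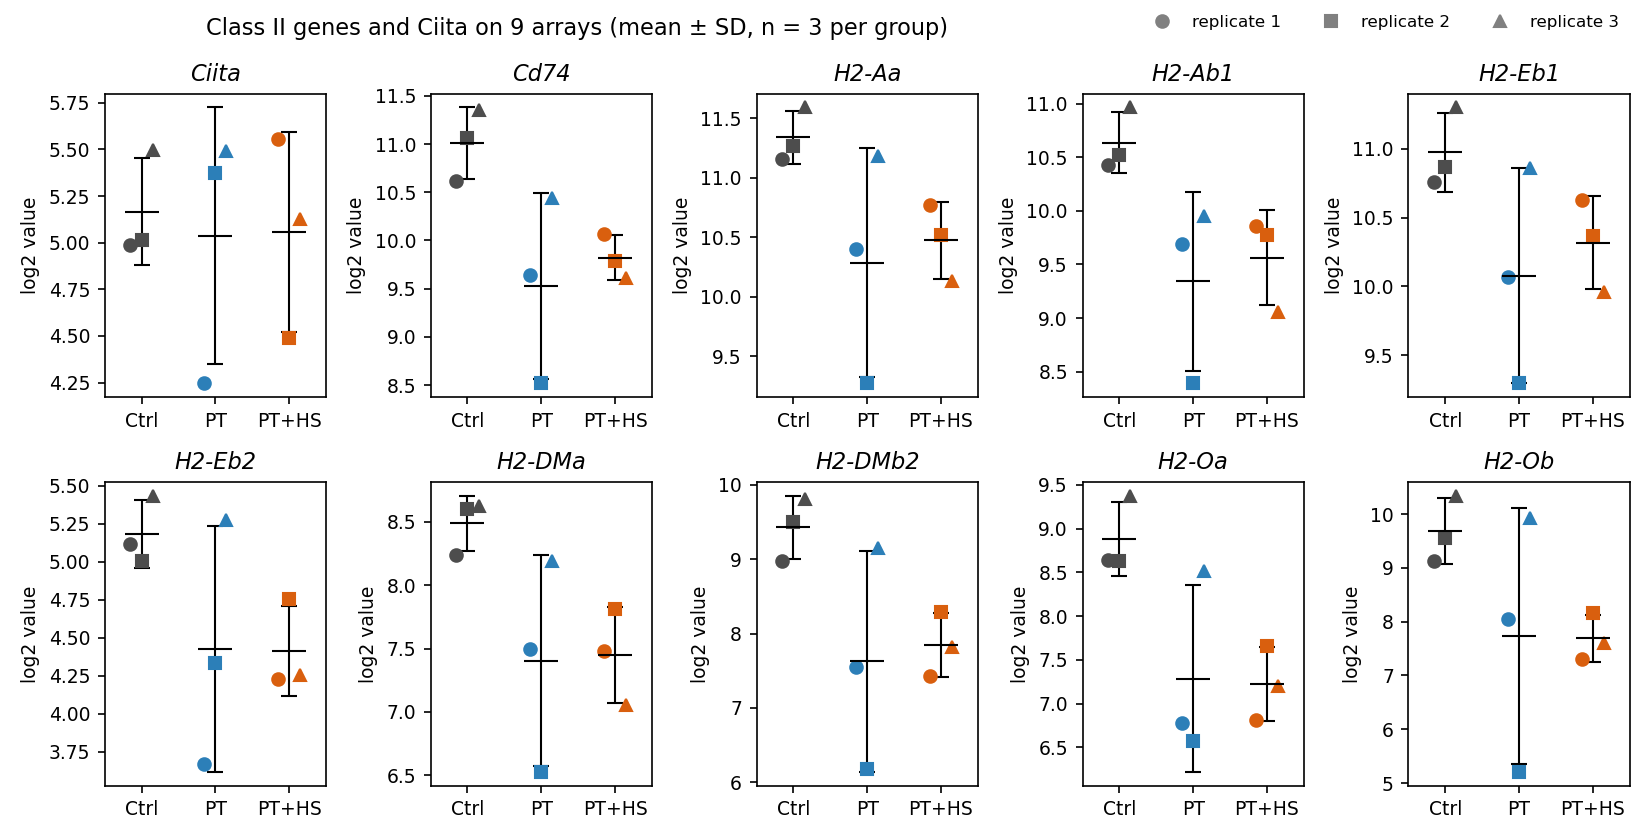
Log2 level of the 10 genes on each of the 9 arrays, 1 panel per gene with its own axis, for Ctrl, PT and PT+HS. Symbols are single animals, the long line is the group mean and the bars are 1 SD (n = 3). Apart from Ciita, each gene has its 3 PT+HS values below its 3 Ctrl values, and PT replicate 2 is the lowest array for 8 of the 10 genes.

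H2-Aa and H2-Ab1 encode the alpha and beta chain of the class II A molecule, the one class II molecule that C57BL/6 mice show at the cell surface. H2-Aa measured 11.16, 11.27 and 11.59 in Ctrl, 10.40, 9.27 and 11.18 in PT, and 10.77, 10.52 and 10.13 in PT+HS. PT replicate 3 reached the lowest Ctrl value, whereas all 3 PT+HS values were below Ctrl. The mean of H2-Aa was 2.08-fold lower in PT than in Ctrl, a log2 difference of -1.05 (SE 0.41, unadjusted p = 0.0273). In PT+HS the log2 difference of -0.87 (SE 0.41, unadjusted p = 0.0599) was not past the thresholds. H2-Ab1 measured 10.43, 10.52 and 10.97 in Ctrl, 9.69, 8.39 and 9.95 in PT, and 9.86, 9.78 and 9.06 in PT+HS. Here both injured groups were below Ctrl without overlap, 2.45-fold in PT (log2 difference -1.29, SE 0.39) and 2.10-fold in PT+HS (-1.07, SE 0.39).

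H2-Eb1 encodes the beta chain of the E molecule, which has no partner at the surface in this strain. Its levels were 10.76, 10.87 and 11.30 in Ctrl, 10.07, 9.30 and 10.86 in PT, and 10.63, 10.37 and 9.96 in PT+HS. One PT array lay within the range of Ctrl. The log2 difference of H2-Eb1 was -0.90 in PT (SE 0.36, unadjusted p = 0.0314) and, not past the thresholds, -0.66 in PT+HS (SE 0.36, unadjusted p = 0.0962). H2-Eb2, a less studied relative of H2-Eb1, measured 5.12, 5.00 and 5.43 in Ctrl, 3.67, 4.33 and 5.28 in PT, and 4.23, 4.76 and 4.26 in PT+HS. Its mean level was higher than that of 58.5% of all genes, and it was past the thresholds in neither group, with log2 differences of -0.76 in PT and -0.77 in PT+HS (both SE 0.36, unadjusted p = 0.0592 and 0.0561). The PT values of H2-Eb2 spread from one below the whole of PT+HS to one within Ctrl.

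The invariant chain Cd74 guards the groove of new class II molecules and guides them to the endosome. Cd74 measured 10.62, 11.06 and 11.35 in Ctrl, 9.64, 8.52 and 10.44 in PT, and 10.07, 9.78 and 9.61 in PT+HS. All 6 injured arrays were below all 3 Ctrl arrays. The mean was 2.79-fold lower in PT (log2 difference -1.48, SE 0.41, unadjusted p = 0.00526) and 2.28-fold lower in PT+HS (-1.19, SE 0.41, unadjusted p = 0.0169). Within PT the single values of Cd74 lay on both sides of the PT+HS values.

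H2-DMa and H2-DMb2 encode an alpha and a beta chain of DM, which catalyses peptide exchange and stays inside the cell. H2-DMa measured 8.24, 8.60 and 8.63 in Ctrl, 7.50, 6.53 and 8.19 in PT, and 7.48, 7.81 and 7.06 in PT+HS. Neither injured group reached Ctrl, although PT replicate 3 came within the distance that separates the Ctrl arrays from each other. H2-DMa was 2.12-fold lower in PT (log2 difference -1.08, SE 0.37) and 2.05-fold lower in PT+HS (-1.04, SE 0.37). H2-DMb2 measured 8.98, 9.50 and 9.81 in Ctrl, 7.55, 6.18 and 9.15 in PT, and 7.43, 8.29 and 7.82 in PT+HS. It was 3.48-fold lower in PT (log2 difference -1.80, SE 0.61, unadjusted p = 0.0145), where 1 array overlapped Ctrl, and 3.0-fold lower in PT+HS (-1.58, SE 0.61, unadjusted p = 0.0267), where none did. The gene has a near-identical neighbour, H2-DMb1, and array signal cannot be fully divided between such copies, so that the value of H2-DMb2 is uncertain in this respect.

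H2-Oa and H2-Ob encode the alpha and beta chain of DO, the inhibitor of DM. H2-Oa measured 8.64, 8.63 and 9.37 in Ctrl, 6.78, 6.57 and 8.51 in PT, and 6.82, 7.65 and 7.20 in PT+HS. The gene was below Ctrl on all 6 injured arrays, by a factor of 3.02 in PT (log2 difference -1.59, SE 0.47, unadjusted p = 0.00725) and of 3.16 in PT+HS (-1.66, SE 0.47, unadjusted p = 0.00578). H2-Ob measured 9.13, 9.56 and 10.34 in Ctrl, 8.04, 5.21 and 9.93 in PT, and 7.31, 8.17 and 7.59 in PT+HS. PT replicate 3 lay within Ctrl, while PT replicate 2 was far below every other array. The mean difference of H2-Ob was -1.95 in PT and -1.99 in PT+HS on the log2 scale. Without PT replicate 2 it was -0.69 in PT, nearer to 0 than that of H2-Oa (-1.24). On all 9 arrays it was not past the thresholds, because the spread of the PT arrays (SD 2.38) enters the error of both comparisons (SE 0.93, unadjusted p = 0.0633 and 0.0593).

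Ciita, the regulator of these genes, was past the thresholds in neither group. It measured 4.99, 5.02 and 5.50 in Ctrl, 4.25, 5.37 and 5.49 in PT, and 5.56, 4.49 and 5.13 in PT+HS. All 3 groups overlapped over most of their range. The log2 difference was -0.13 in PT, with a 95% interval from -0.95 to 0.69, and -0.11 in PT+HS, with an interval from -0.93 to 0.71. A 1.5-fold difference in either direction lies within both intervals, so that equal levels of Ciita were not shown either. The mean level of Ciita over all arrays, 5.09, was higher than that of 66.3% of all genes. H2-Ea, which has lost its promoter in this strain, had a mean level of 5.80 in Ctrl. Levels of this height, those of Ciita and H2-Eb2 among them, were therefore not shown to be specific signal. The sign of Ciita against Ctrl turned without Ctrl replicate 3 (0.04 in PT and 0.06 in PT+HS). It also turned in PT without PT replicate 1 (0.27) and in PT+HS without PT+HS replicate 2 (0.18). With array weights, which took most of the PT mean from PT replicate 1, the array with the lowest Ciita value, the difference in PT was -0.73 and past the thresholds (unadjusted p = 0.0365, limma).

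Counted by overlap instead of by a test, 4 genes had every PT value below every Ctrl value (Cd74, H2-Ab1, H2-DMa and H2-Oa), where 5.12% of all genes did. In PT+HS, 9 genes had every value below Ctrl, all except Ciita, where 6.68% of all genes did. Between PT+HS and PT, 0 of the 10 genes were separated. Of all genes, 3.56% had every PT+HS value below every PT value, and 656 had every PT+HS value above. The higher count of separated genes in PT+HS went along with a narrower group, since the SD of these 9 genes lay between 0.23 and 0.44 in PT+HS and between 0.78 and 2.38 in PT.

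**Figure D2:**
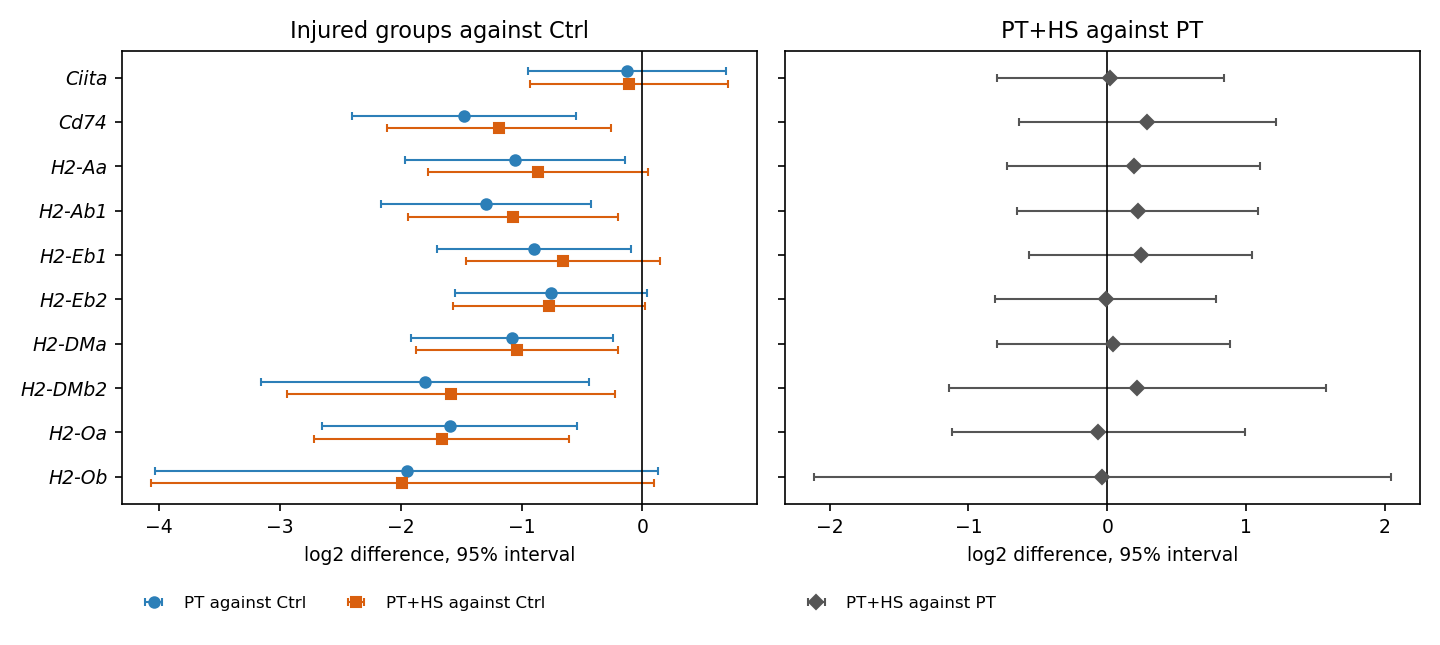
Fitted log2 differences of the 10 genes with 95% intervals, on the left PT (circles) and PT+HS (squares) against Ctrl and on the right PT+HS against PT. Both groups lie below 0 for each gene, with Ciita nearest to 0, whereas all 10 intervals between PT+HS and PT include 0.

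The added hemorrhage was read from PT+HS against PT. That comparison takes hemorrhage, fluid resuscitation and any difference in norepinephrine together, which cannot be told apart. The 10 log2 differences lay between -0.06 for H2-Oa and 0.29 for Cd74, with a median of 0.12, and the adjusted p was 1.0 throughout (limma). For Cd74 the 95% interval ran from -0.64 to 1.21, for H2-Ab1 from -0.65 to 1.09, for H2-Oa from -1.12 to 0.99 and for H2-Ob from -2.12 to 2.04. Each of these intervals includes a 1.5-fold difference in either direction, so that the 2 injured groups were not shown to have equal levels. The sign rested on single PT arrays. Without PT replicate 2 the median was -0.29 and H2-Ob alone was past the thresholds (-1.30, unadjusted p = 0.0311), and without PT replicate 3 the median was 0.59 and H2-DMb2 alone was past the thresholds (0.98, unadjusted p = 0.0431).

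Leaving out PT replicate 2 also made the differences of PT from Ctrl smaller. The median went from -1.19 to -0.70, and 5 genes were past the thresholds, since H2-Aa (-0.55, unadjusted p = 0.0736) and H2-Eb1 (-0.51, unadjusted p = 0.106) were lost. Cd74 was then at -0.97, H2-Ab1 at -0.82, H2-DMa at -0.64, H2-DMb2 at -1.08 and H2-Oa at -1.24. Of the genes not past the thresholds, H2-Ob went to -0.69, H2-Eb2 to -0.71 and Ciita to -0.30. Without PT replicate 3, the PT array nearest to Ctrl, the median was -1.55 and 9 genes were past the thresholds, all except Ciita. Of all genes, 1117 were past the thresholds without PT replicate 2 and 1493 without PT replicate 3, against 668 on all arrays. The methods' t-test takes the spread of the compared groups alone. It put 0 of the 10 genes past the thresholds in PT and 8 in PT+HS, beside 293 and 542 of all genes. In PT+HS the count of 5 was 3 without Ctrl replicate 2, 1 (H2-Oa) without Ctrl replicate 3 and 1 (H2-Oa) without PT+HS replicate 3. It rose to 8 without PT replicate 2 and to 9 without PT replicate 3, because the PT arrays share in the estimate of the spread. Of all genes, 516 were past the thresholds in PT+HS without Ctrl replicate 2 and 554 without Ctrl replicate 3, against 596 on all arrays.

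Agreement between probe sets was read from the 20 probe sets with exactly 1 symbol that report the 10 genes. There were 4 for H2-Aa, 3 each for Ciita, H2-Ab1 and H2-DMb2, 2 for H2-DMa and 1 for each of the other genes. Another 3 probe sets carry 2 symbols and were left out, 2 of them shared by H2-DMb2 and H2-DMb1 and 1 by H2-Ob and a predicted gene. Of the 20, 19 were below 0 in PT and 19 in PT+HS, with 15 and 12 past the thresholds and 0 higher. Probe sets of the same gene are not independent, and the share past the thresholds among all probe sets was not counted. These counts therefore add no further genes to those named above. The one above 0 in both groups was a Ciita probe set.

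**Figure D3:**
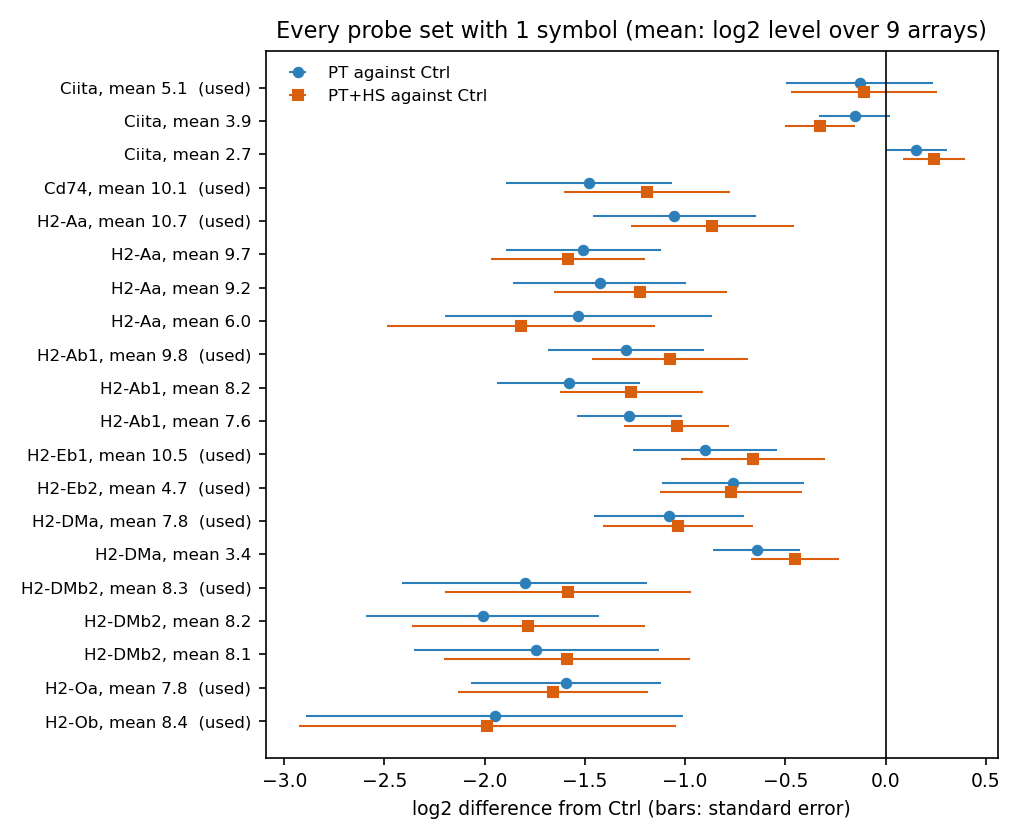
Log2 difference from Ctrl with its standard error for each of the 20 probe sets with 1 symbol, PT as circles and PT+HS as squares. Each row gives the gene and the mean level of the probe set over 9 arrays, and "used" marks the one that stands for the gene. Probe sets of H2-Aa, H2-Ab1 and H2-DMb2 lie together below 0, while those of Ciita lie on both sides of 0.

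The 4 probe sets of H2-Aa gave log2 differences of -1.05, -1.51, -1.43 and -1.53 in PT and of -0.87, -1.59, -1.22 and -1.82 in PT+HS, in the order of their levels. The brightest one, used for the gene, showed the smallest difference in both groups and was the only one of the 4 not past the thresholds in PT+HS. When the probe sets of a gene were averaged instead, H2-Aa differed by -1.37 in PT+HS and was past the thresholds (unadjusted p = 0.0123). The names of 3 of the 4, the used one among them, end in _x_at, which Affymetrix gives to sets with probes that may also bind other sequences. The probe sets of H2-Ab1 lay close together, at -1.29, -1.58 and -1.28 in PT and -1.07, -1.27 and -1.04 in PT+HS. So did those of H2-DMb2, at -1.80, -2.01 and -1.74 in PT and -1.58, -1.78 and -1.59 in PT+HS. The second probe set of H2-DMa, with a mean level of 3.41 under the median of all probe sets (3.84), gave -0.64 in PT and -0.45 in PT+HS. The 3 probe sets of Ciita gave -0.13, -0.15 and 0.15 in PT and -0.11, -0.33 and 0.24 in PT+HS at mean levels of 5.09, 3.88 and 2.69, and none was past the thresholds.

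The other genes of the class II pathway were grouped by role. H2-Ea, the E alpha chain gene that is annotated as a transcribed pseudogene, had mean levels of 5.80, 5.87 and 6.01 in the order Ctrl, PT, PT+HS, and its differences of 0.08 and 0.21 were not past the thresholds. Of the 7 genes for the factors that bind class II promoters and recruit Ciita, 0 were past the thresholds in either comparison with Ctrl, and the medians were -0.29 and -0.23. Among them Rfx5, the DNA-binding subunit of RFX, stood at -0.62 in PT and -0.49 in PT+HS. Of 12 measured genes that act upstream of Ciita, 1 was past the thresholds in PT, lower, and 2 in PT+HS, 1 lower and 1 higher, and the medians were -0.08 in both groups. The list shares Pax5 with the B-cell markers. Irf4, a transcription factor of activated lymphocytes and B cells, was past the thresholds and lower in both, with log2 differences of -0.90 and -1.15 (SE 0.36). Its values overlapped Ctrl in both injured groups. Spi1, which encodes the myeloid and B-cell factor PU.1, was at 0.48 in PT and rose by 0.73 in PT+HS (SE 0.30, unadjusted p = 0.037), with the groups overlapping. The interferon gamma gene Ifng, the classical inducer of Ciita, was at -0.39 in PT (SE 0.16) and -0.21 in PT+HS, both less than 1.5-fold.

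Of the 10 genes for invariant chain processing and class II turnover, only Ctsl was past the thresholds. Ctsl, which encodes the protease cathepsin L, rose by 1.71 in PT and by 1.74 in PT+HS (SE 0.58), without overlap with Ctrl in either group. Ctss, which encodes the cathepsin that trims the invariant chain in B cells and dendritic cells, was at 0.04 and 0.27, and Marchf1, whose product sends class II to degradation, at -0.62 and -0.03. The list medians were -0.06 and 0.19.

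Among 5 costimulation genes, 3 were past the thresholds and lower in each injured group, all of them without overlap with Ctrl. Cd40, the receptor through which T cells activate B cells, fell, with log2 differences of -0.88 in PT and -1.12 in PT+HS (SE 0.21). Icosl, the ligand of the costimulatory receptor ICOS, fell as well, with -0.90 and -0.77 (SE 0.20), and Cd83, which holds class II at the surface, fell as well, with -1.0 and -1.39 (SE 0.32). Mean levels of these 3 genes were 6.21 to 6.54 in Ctrl and 5.01 to 5.78 in the injured groups, beside 5.80 for H2-Ea in Ctrl. Levels of that height were not shown to be specific signal. Cd86 stood at 0.20 and 0.21 and Cd80 at -0.41 and -0.17. Genes of the T-cell side, Cd4 and Lag3, were at 0.04 and 0.08 in PT and -0.04 and -0.03 in PT+HS. The class I counterpart had 0 of 10 measured genes past the thresholds in either group, with medians of -0.26 and -0.18. Its regulator Nlrc5, a relative of Ciita, stood at 0.19 and 0.40, and B2m, the light chain of class I, at -0.48 and -0.18.

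**Figure D4:**
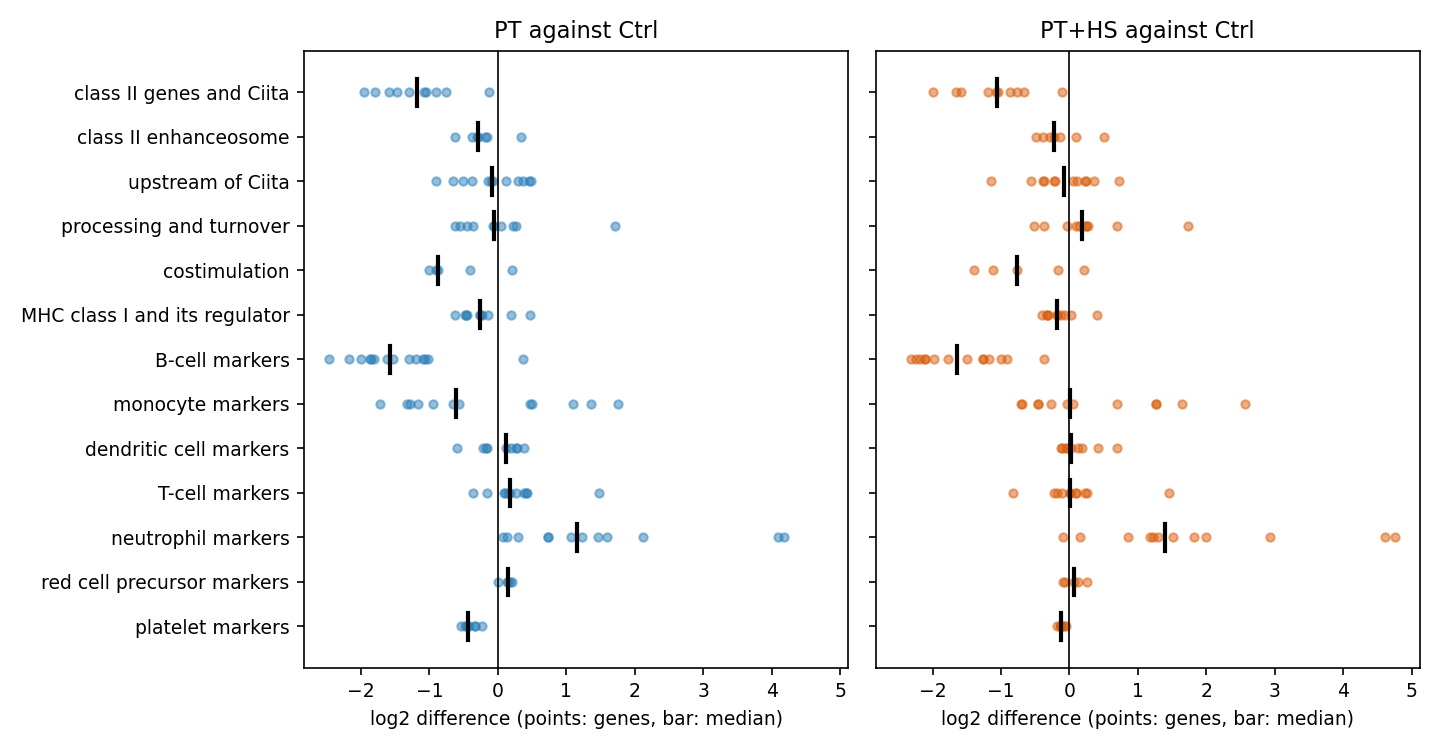
Log2 differences of single genes (points) and list medians (bars) in 13 lists, for PT against Ctrl on the left and PT+HS against Ctrl on the right, on a shared axis. The class II genes (medians -1.19 and -1.05), the costimulation genes (-0.88 and -0.77) and the B-cell markers (-1.58 and -1.64) lie furthest below 0, and the neutrophil markers (1.15 and 1.40) furthest above.

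Markers of blood cell types were read beside the class II genes, since in whole blood fewer cells of a type and less RNA per cell cannot be told apart. Of 14 measured B-cell markers, 13 were past the thresholds and lower in PT and 12 in PT+HS, with medians of -1.58 and -1.64. Fcer2a, the low affinity IgE receptor of B cells, fell, with log2 differences of -2.18 in PT and -2.31 in PT+HS (SE 0.52), and Cxcr5, the receptor that leads B cells into follicles, fell as well, with -1.99 and -2.11 (SE 0.51). Cd79a, a signal chain of the B-cell receptor, fell, with -1.20 and -1.17 (SE 0.29), and Vpreb3, a B-lineage gene, fell as well, with -1.07 and -0.92 (SE 0.19). The mean of the 14 markers was 7.0, 7.49 and 7.88 in Ctrl, 5.80, 5.19 and 6.95 in PT, and 5.65, 6.15 and 5.81 in PT+HS. The mean of the 10 genes described here was 8.81, 9.00 and 9.43 in Ctrl, 7.76, 6.97 and 8.90 in PT, and 8.02, 8.16 and 7.78 in PT+HS. Within Ctrl and within PT the arrays stood in the same order by both means, and within PT+HS they did not. Their part in the class II differences was not tested.

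**Figure D5:**
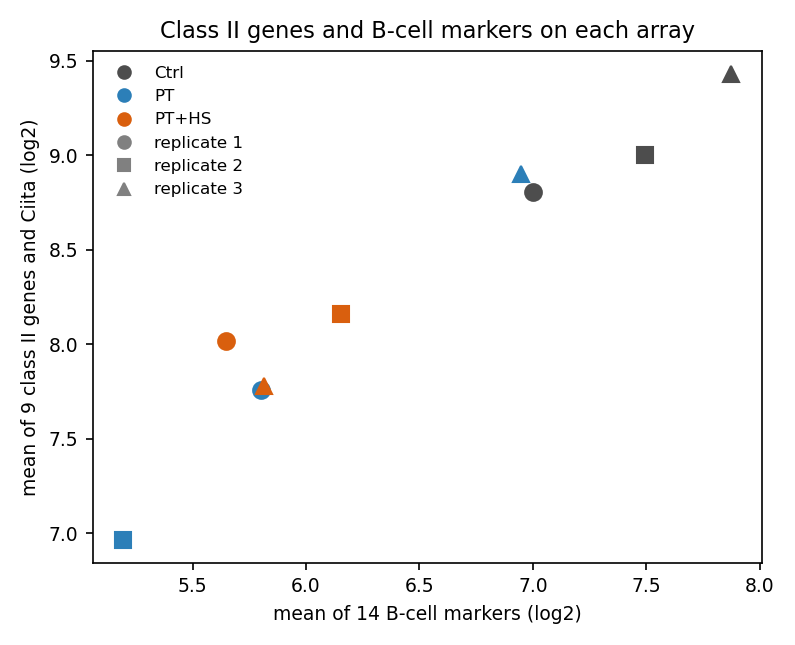
Mean log2 level of the 9 class II genes and Ciita (vertical) against the mean of 14 B-cell markers (horizontal) on each of the 9 arrays, with colour for the group and shape for the replicate. Ctrl arrays and PT replicate 3 lie at the upper right, the PT+HS arrays and PT replicate 1 lie lower on both axes, and PT replicate 2 is lowest on both.

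Set against the B-cell markers of the same array, the mean of the class II genes and Ciita was not lower in the injured groups than in Ctrl. The mean of the 10 genes minus the mean of the 14 markers was 1.62 ± 0.16 for Ctrl, 1.89 ± 0.10 for PT and 2.11 ± 0.22 for PT+HS (log2, SD, n = 3). Without Ciita, the mean of the other 9 genes minus that of the markers was 2.06 ± 0.15 for Ctrl, 2.21 ± 0.22 for PT and 2.44 ± 0.19 for PT+HS, above Ctrl by 0.15 in PT and 0.38 in PT+HS, a setting added after seeing the data. The 9 genes still include H2-Eb2, whose level, like that of Ciita, was not shown to be specific signal. The above differences of means were not tested between groups. Gene by gene it differed from Ctrl by 0.57 in PT and 0.93 in PT+HS for H2-Eb1, by 0.42 and 0.72 for H2-Aa, by 0.72 and 0.82 for H2-Eb2, by 0.18 and 0.51 for H2-Ab1, and by 0.39 and 0.55 for H2-DMa. For Cd74 it was -0.00 and 0.40. H2-Oa was at -0.12 and -0.07, H2-Ob at -0.47 and -0.40, and H2-DMb2 at -0.33 and 0.00. The values of H2-Aa hold for its brightest probe set alone, which showed the smallest fall. The other H2-Aa probe sets differed from Ctrl by -1.51, -1.43 and -1.53 after PT and by -1.59, -1.22 and -1.82 after PT+HS. The marker mean itself went from 7.46 (Ctrl) to 5.98 (PT) and 5.87 (PT+HS). Those other probe sets were not set against the markers. The values of H2-Ob and H2-DMb2 in PT rested on PT replicate 2, without which they were 0.39 and 0.00, and that of H2-Eb2 was then 0.37 and that of Ciita 0.78. When each array was left out in turn, the sign also turned in PT for Cd74 (from -0.15 to 0.11), H2-Ab1 (-0.08 to 0.36) and H2-Oa (-0.26 to 0.05), and in PT+HS for H2-Oa (-0.22 to 0.03) and H2-DMb2 (-0.08 to 0.10). Ciita, at 1.35 and 1.48 on all arrays, had the highest values. Its own mean level differed from Ctrl by -0.13 in PT and -0.11 in PT+HS, and equal levels were not shown. The marker mean was lower in both injured groups.

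Against Ctrl, markers of other cells with class II did not show a common direction. Of 12 measured monocyte markers, 3 were past the thresholds and higher and 5 lower in PT, and 4 were higher and 1 lower in PT+HS, with medians of -0.61 and 0.01. Cd14 and Ccr2, markers of classical monocytes, rose in both groups (Cd14 by 1.75 and 2.56, SE 0.52, and Ccr2 by 1.36 and 1.64, SE 0.42). Treml4 and Cx3cr1, of the patrolling monocytes, fell in PT, with log2 differences of -1.17 and -1.29 (SE 0.30 for both). In PT+HS Treml4 stood at -0.45 while Cx3cr1 fell, with -0.69, overlapping Ctrl. Fcgr4 of the same list went the other way, with 0.47 in PT and, past the thresholds, 1.27 in PT+HS (SE 0.40), also overlapping Ctrl. The mean of the 12 markers ranged from 6.76 to 7.25 in Ctrl, from 6.25 to 7.31 in PT and from 7.14 to 7.68 in PT+HS. Compared with PT, all 12 were above 0 in PT+HS, with a median of 0.69. Of these, 3 were past the thresholds and higher, beside 132 of all 18194 genes. Of 9 measured dendritic cell markers, 0 were past the thresholds in PT and 1 was in PT+HS, namely Flt3, the receptor of the dendritic cell growth factor (0.70, SE 0.24). Their mean level was 4.4 in the Ctrl group, 4.41 after PT and 4.53 after PT+HS, near the median of all genes. Xcr1, which defines cross-presenting dendritic cells, was at 2.85 in the Ctrl group, 2.69 after PT and 2.73 after PT+HS, below the median of all genes. Compared with PT, 1 dendritic cell marker was past the thresholds in PT+HS, Batf3, higher by 1.02 (SE 0.33) without overlap. Its mean levels were low, 3.04 in PT and 4.06 in PT+HS. The part of monocytes and dendritic cells in the class II values was not tested.

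Of 11 measured T-cell markers 0 were past the thresholds in either group, with medians of 0.18 and 0.00, and Il7r was at 1.48 and 1.46 (SE 0.69). The neutrophil markers stood on the other side, with 6 of 12 past the thresholds and higher in PT, 8 in PT+HS and medians of 1.15 and 1.40. Mmp8, a collagenase of neutrophil granules, rose by 4.18 in PT and 4.75 in PT+HS (SE 0.47), and in PT+HS it was the 1 gene of the whole array with an adjusted p under 0.05 (limma, adjusted p = 0.0306). None of 5 red cell precursor markers was past the thresholds, with medians of 0.15 and 0.06. None of 8 platelet markers was either, with medians of -0.44 and -0.12, although all 8 were below Ctrl without overlap in PT. The part of these cells in the class II values was not tested.

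Across the 9 arrays the class II genes varied together. The correlation of a gene with the mean of the other 9 was between 0.926 and 0.975 for Cd74, H2-Aa, H2-Ab1, H2-Eb1, H2-DMa, H2-DMb2, H2-Oa and H2-Ob. It was 0.799 for H2-Eb2 and 0.154 for Ciita. Over the 45 pairs of genes the median r was 0.902 and, around the group means, 0.848, with a range from -0.091 to 0.986. These are descriptions over 9 arrays that share the group differences and the array that stands apart. The 10 genes outside the set with the highest correlation to its mean, among genes with a mean level above the median, were Ighm (r = 0.988), Cnn3 (0.987), Hvcn1 (0.987), Sbk1 (0.987), Acss1 (0.985), Tnfrsf13b (0.985), Gm20559 (0.982), Cd72 (0.981) and 2 variable segment genes of the antibody kappa chain (0.985 and 0.982). Ighm and both kappa genes encode parts of antibodies, Tnfrsf13b and Cd72 encode B-cell receptors, and Hvcn1 encodes a proton channel of B cells and phagocytes. The kappa variable genes belong to a large family of similar sequences, so that the gene behind each of these probe sets is uncertain.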

How the data were processed

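The deposited values are log2 values to which the authors had applied the robust multiarray average, which corrects background, equalizes the arrays and summarises each probe set. Expression Console and BRB-ArrayTools, versions not given in the sources used here, were their tools. The paper names another array type than that of the deposited probe set names, whose own annotation was used. Of 45101 probe sets, 34958 had exactly 1 symbol, 932 several and 9211 none. For 34754 the symbol was updated through the Entrez ID. The brightest probe set on average over the 9 arrays gave 1 value for each of 18194 genes, without a filter on low values, and 0 columns of values were left unused. Differences were fitted in R 4.3.3 with limma 3.58.1, with 1 mean per group and two-sided moderated tests, and the fit was tested on simulated data. The 3 animals per group, as the paper gives them, were the replicates, and their number limits the precision.

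The genes, the lists (other class II genes, enhanceosome, upstream of Ciita, processing and turnover, costimulation, T-cell ligands, class I, and markers of B cells, monocytes, dendritic cells, T cells, neutrophils, red cell precursors and platelets) and the tests were chosen with earlier results of these data known. In all, 118 of 132 list genes were measured. Named are the 10 genes, genes of the pathway and class I lists past the thresholds, up to 4 genes of each marker list with the smallest p against Ctrl, and the 10 genes most alike over the arrays, and other genes that are named were chosen after their values were seen. The alternatives were the methods' t-test, the arrays of the compared groups alone, a variance trend, array weights, equal array medians, genes above the median level, averaged probe sets of a gene, a replicate block, a 2-fold threshold and leaving out each array.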

Additional observations from a re-analysis of the deposited data

How the results depend on the processing

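Apart from Ciita, each of the 10 genes stayed below Ctrl in PT and in PT+HS under all alternatives run. The number of genes past the thresholds did depend on the processing, and the cause was not tested unless named. In PT it was 7, with 0 in the methods' t-test, 10 with array weights and 5 to 9 when single arrays were left out. In PT+HS it was 5, with 8 in the methods' t-test, 9 with the arrays of the compared groups alone, 8 with a variance trend, 9 with array weights and 1 to 9 without single arrays. Between PT+HS and PT it was 0, and 0 to 1 without single arrays. The count over all 18194 genes, in either direction, moved as well. In PT it was 668, with 293 in the methods' t-test, 1666 with array weights and 1493 without PT replicate 3. In PT+HS it was 596, with 542 in the methods' t-test and 898 with the arrays of the compared groups alone. A variance trend gave 602 there and array weights 837. Adjusted p-values were under 0.05 for 4 genes in PT with array weights (Cd74, H2-Eb2, H2-DMb2 and H2-Oa), where PT replicate 1 made up 86.9% of the PT mean. They were so for 3 genes in PT+HS with the arrays of the compared groups alone (H2-DMb2, H2-Oa and H2-Ob). Leaving out single arrays gave 0 such genes in each comparison. Of all genes, 448 had an adjusted p under 0.05 in PT with array weights. In PT+HS with the arrays of the compared groups alone, 134 did.

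The median difference ranged from -1.55 to -0.70 in PT, from -1.18 to -0.83 in PT+HS and from -0.29 to 0.59 between PT+HS and PT without single arrays. Ciita ranged from -0.36 to 0.27 in PT and from -0.36 to 0.18 in PT+HS without single arrays, and in PT it was -0.73 with array weights, the alternative in which it was past the thresholds. Between PT+HS and PT the sign of single genes was not stable. Array weights gave -0.10 for H2-Ab1, 0.57 for H2-Eb2, -0.076 for H2-DMa and 0.29 for H2-Oa, equal array medians gave 0.0042 for H2-Eb2, and the mean of its probe sets gave -0.022 for Ciita. Without single arrays that difference ranged from -0.38 to 0.30 for Ciita, -0.22 to 0.74 for Cd74, -0.32 to 0.64 for H2-Aa, -0.26 to 0.52 for H2-Ab1, -0.15 to 0.63 for H2-Eb1, -0.39 to 0.41 for H2-Eb2, -0.39 to 0.44 for H2-DMa, -0.51 to 0.98 for H2-DMb2, -0.42 to 0.55 for H2-Oa and -1.30 to 1.07 for H2-Ob.

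Equal replicate numbers were not taken as pairs, since the deviations of same-numbered arrays from their group means correlated between -0.12 and 0.48. With the replicate block, 9 genes in PT, 7 in PT+HS and 0 between PT+HS and PT were past the thresholds. None of these genes had an adjusted p under 0.05 in any comparison. Of all genes, 743 were past the thresholds in PT and 693 in PT+HS.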
